A study of Arabidopsis thaliana with 2 samples.

Results

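CCA1, a transcription factor with a MYB domain, belongs to the core of the Arabidopsis circadian clock. It accumulates around dawn and is best known for repressing genes that are expressed in the evening, by binding short DNA elements that lie mostly upstream of them. In chromatin immunoprecipitation sequencing (ChIP-seq), DNA cross-linked to a chosen protein is pulled down and sequenced, and a peak caller marks the stretches where reads pile up. Described here are the peaks that a library read on an Ion PGM sequencer (IonPGM) placed at the ends of protein-coding genes and that a library read on an Illumina GAII (Illumina) did not have.

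The plants of both libraries were cca1 lhy double mutants in the Col-0 accession that expressed CCA1 fused to a FLAG tag from the CCA1 promoter (CCA1pro:CCA1-FLAG). The tagged protein was thus expressed in place of the mutated CCA1 gene, and the related clock factor LHY was mutated as well. Seedlings were kept at 22 °C in 12 h light and 12 h dark, on 2% sucrose. At 14 days they were fixed whole, 1 h after the lights came on, so that all seedling cell types were mixed, and an anti-FLAG antibody was used for precipitation. How many transgenic lines were used, and whether both libraries came from the same precipitated DNA, is not given in the sources used here. There was 1 library per sequencer, so replicate error could not be had for any value, and sequencer, library kit and plant material cannot be told apart. No control library was analysed here, and a peak list holds no marker of cell type against which the tissue could be checked.

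The members were chosen by the peak calls of both lists and by position: nuclear IonPGM peaks that overlapped no Illumina peak, whose midpoint lay within 1000 bp outside or 200 bp inside the nearest end of a protein-coding gene and no deeper than 200 bp in any such gene. This left 570 peaks, of 2901 in the IonPGM list and 2848 on its nuclear chromosomes. They made up 41.9% of the 1361 nuclear peaks found by IonPGM alone and 38.2% of the 1494 IonPGM peaks at gene ends (exact 95% interval 35.7 to 40.7%). For comparison, 943 of 1893 Illumina peaks at gene ends (49.8%, 47.5 to 52.1%) were in the Illumina list alone. Intervals here are exact binomial intervals over peaks or genes and cover counting error only. The members were spread over all 5 chromosomes: 138, 89, 128, 92 and 123 on chromosomes 1 to 5, which is between 18.5% and 22.2% of the IonPGM peaks on each.

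The score that the authors' peak caller gave each peak was turned into a rank within the list, given as a percentile that runs from 0 (lowest) to 100 (highest). Most members ranked low. Their percentiles ran from 0.172 to 99.9 with a median of 36.0 and quartiles of 19.5 and 56.9, against a median of 62.5 and quartiles of 39.0 and 82.1 for the 924 IonPGM peaks at gene ends that overlapped an Illumina peak (called shared). Of the members 177 (31.1%) stood above percentile 50, against 599 (64.8%) of the shared peaks. The 943 Illumina-only peaks at gene ends had a median of 36.1 within their own list, with quartiles of 17.4 and 57.4. The gene-end peaks that each list held alone thus sat at like ranks within their lists. Both classes sat below the shared ones. Elsewhere the medians of IonPGM-only peaks were 27.7 inside genes and 54.0 far from genes, and those of Illumina-only peaks 26.1 and 43.7. Whether a peak overlaps the other list is what chose the members, so these ranks are given as a description.

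**Figure D1:**
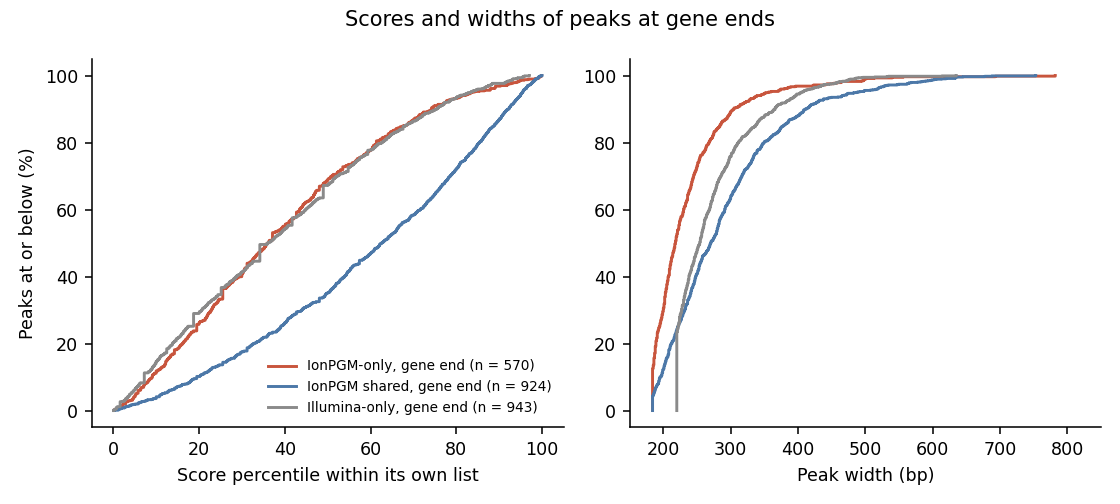
Cumulative share of peaks (%) by score percentile within the peak's own list (left) and by width in bp (right), for IonPGM-only, shared IonPGM and Illumina-only peaks at gene ends. The IonPGM-only curve runs with the Illumina-only curve in score (medians 36.0 and 36.1) and lies left of the other two in width (median 218 bp, against 270 and 254 bp).

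Along the score scale, the part of gene-end peaks that was found by IonPGM alone was 63.6% (68 of 107, interval 53.7 to 72.6%) in the lowest decile of the IonPGM scores. It was 49.1% (79 of 161) in the fifth decile and 31.6% (50 of 158) in the sixth. In deciles 9 and 10 it was 13.3% (21 of 158) and 12.9% (18 of 139, interval 7.86 to 19.7%). High-scoring members were therefore few, with 18 above percentile 90.

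**Figure D2:**
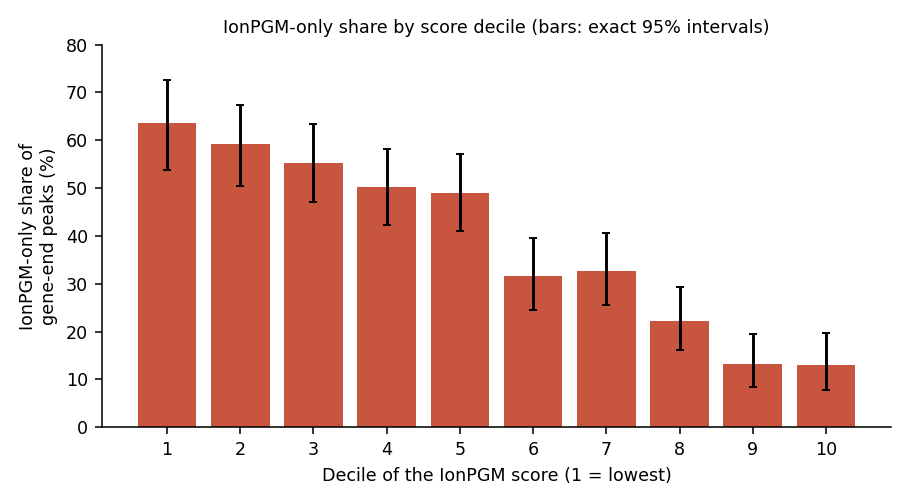
Share of IonPGM gene-end peaks (%) that overlapped no Illumina peak, by decile of the IonPGM score (1 is the lowest), with exact 95% intervals over peaks. The share is 63.6% in decile 1 and 12.9% in decile 10, with 31.6% and 32.7% in deciles 6 and 7.

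Members were also narrow. Their median width was 218 bp (quartiles 194 and 254 bp, range 184 to 782 bp), against 270 bp (222 and 332 bp) for shared IonPGM peaks at gene ends. IonPGM-only peaks far from genes had a like median of 225 bp, and those inside genes had 271.5 bp. Lack of overlap chose the members, and a wider peak can overlap more easily, so the widths too are given as a description. The narrowest peak of the IonPGM list was 184 bp, and 72 members (12.6%) had that width, against 41 shared peaks (4.44%). In the Illumina list, whose narrowest peaks were 220 bp, 222 of the 943 Illumina-only peaks at gene ends (23.5%) had the least width. The widest member, 782 bp at percentile 66.3 on chromosome 2, lay over the non-coding RNA gene GUT15, which was named after its value was seen.

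Within the window that chose them, the members' midpoints gathered close to the gene boundary. Position was part of the rule for all classes compared here, so these distances are given as a description. The table of genes used here gives no strand, so an end can be the start or the finish of a gene, and a position upstream could not be told from one downstream. The median midpoint lay 51 bp outside the gene, against 133 bp for shared IonPGM peaks and 88 bp for Illumina-only peaks. Of the members 208 (36.5%, interval 32.5 to 40.6%) were centred 0 to 200 bp inside the gene, 196 (34.4%) 1 to 200 bp outside, 80 (14.0%) 201 to 500 bp outside and 86 (15.1%) 501 to 1000 bp outside. Of the shared peaks 23.6% (20.9 to 26.5%) were centred inside, 35.8% 1 to 200 bp outside, 22.1% 201 to 500 bp outside and 18.5% farther out. The members were thus centred inside the gene in a larger part than the shared peaks, and Illumina-only peaks stood between them at 29.7% (26.8 to 32.7%). This difference was not tested, since peaks of 1 library are not replicates.

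By extent rather than midpoint, 275 members (48.2%) lay across the end of their nearest gene, 224 (39.3%) wholly outside it and 71 (12.5%, interval 9.86 to 15.5%) wholly inside it. Of the shared peaks 46.9% lay across, 49.5% wholly outside and 3.68% wholly inside, and of the Illumina-only peaks 52.5%, 40.3% and 7.21% did. Members farther from a gene had higher median scores: the median percentile was 45.8 at 501 to 1000 bp outside, 38.5 at 201 to 500 bp, 32.3 at 1 to 200 bp and 33.9 inside, while the median width differed by at most 6 bp between these groups (214.5 to 220.5 bp). Many gene ends in this compact genome face another gene, and 277 members (48.6%) lay in the end windows of at least 2 genes, 16 of them in 3.

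**Figure D3:**
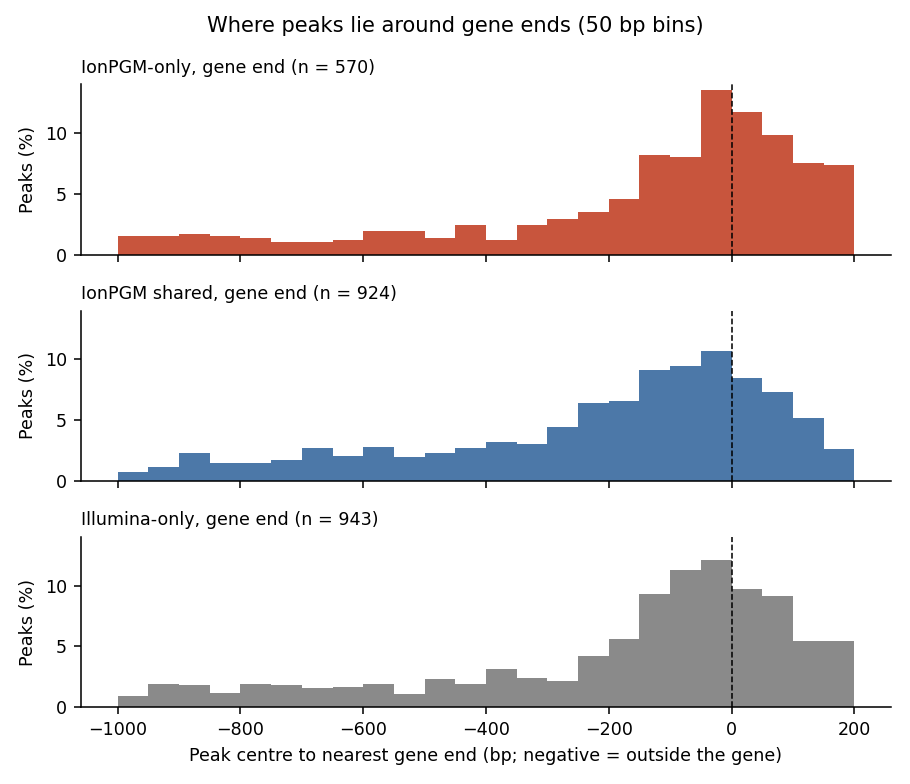
Percent of peaks in 50 bp bins by the distance (bp) of the peak centre from the nearest gene end, negative outside the gene, for IonPGM-only (top), shared IonPGM (middle) and Illumina-only peaks (bottom). IonPGM-only peaks are centred inside the gene in 36.5% of cases, against 23.6% of shared and 29.7% of Illumina-only peaks. Each class was chosen to have midpoints from 1000 bp outside to 200 bp inside.

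Few members were near misses of an Illumina peak. The rule had removed peaks that overlapped one, so the gaps are given as a description. The gap from a member to the nearest Illumina peak was 11756 bp in the median (quartiles 4786 and 23883 bp). Only 10 of 570 (1.75%) had an Illumina peak within 200 bp and 54 (9.47%) within 1000 bp, whereas 315 (55.3%) had none within 10000 bp. The closest were peaks at GBF1, a G-box binding bZIP factor (gap 6 bp, percentile 17.5), AT4G33700 (28 bp, 56.5) and AT4G13180 (54 bp, 4.57). Just across that limit were shared peaks at AT1G26160, AT5G02610 and PKT3, which overlapped an Illumina peak by 11, 24 and 64 bp and had percentiles of 1.17, 16.6 and 3.71. Other IonPGM peaks were no closer: the median gap to the next IonPGM peak was 12431 bp, 48 members (8.42%) had one within 1000 bp, and for 28 of these it was a shared peak.

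**Figure D4:**
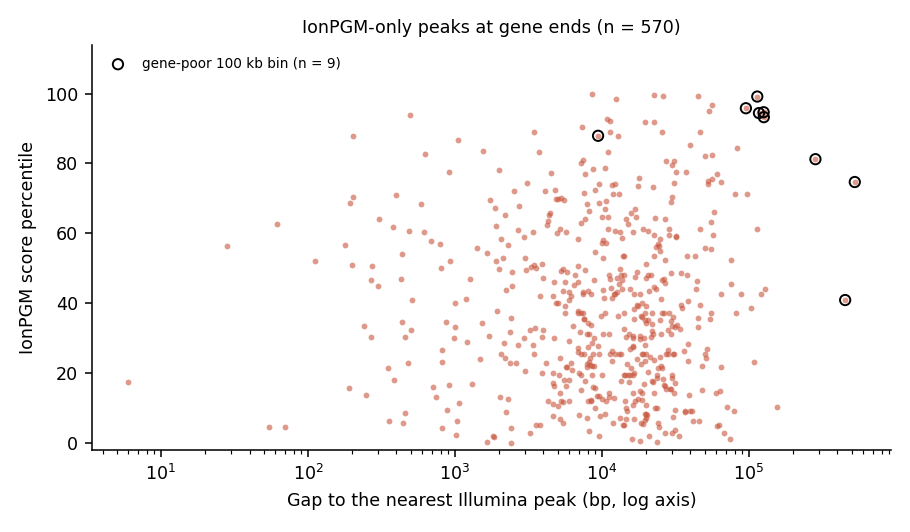
Score percentile of each of the 570 IonPGM-only peaks at gene ends against its gap in bp to the nearest Illumina peak (log axis). Most points lie beyond 1000 bp at every score, and 8 of the 9 circled peaks in gene-poor bins stand at percentile 74.7 or higher.

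The position limits also had peaks close on both sides. The outermost members lay 995 bp from PSKR2, a receptor kinase for a phytosulfokine peptide (percentile 41.2), 992 bp from AT1G49500 (56.9) and 978 bp from AT2G19090 (61.4), and the next IonPGM-only peaks beyond the limit lay 1001 bp from DIS2 (74.7), 1006 bp from AT2G40435 (49.7) and 1010 bp from AT1G61270 (19.5). The innermost members were centred 198 bp inside DCP5, an mRNA decapping factor (1.36), 197 bp inside SFR6, a Mediator subunit needed for freezing tolerance (23.4), and 195 bp inside LHCA1 (13.2). Just deeper, and so not members, were peaks 201 bp inside AT3G01690 (4.102), 204 bp inside AT5G48480 (28.6) and 206 bp inside AT5G02870 (3.19).

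Each of the 10 highest-scoring members was at least 8596 bp from an Illumina peak. Positions are those of the authors' TAIR10 peak lists. The first, at percentile 99.9 and rank 4 of the whole IonPGM list, lay across an end of NAC097 (AT5G50820), a NAC-domain transcription factor gene, at chromosome 5: 20680028 to 20680362. The second (99.7) lay wholly outside AT1G27880 at chromosome 1: 9708095 to 9708465, with its midpoint 581 bp from the gene and AT1G27870 also in reach. The third (99.3) lay between AT3G18560 and AT3G18570 at chromosome 3: 6394944 to 6395188.

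The fourth (99.3) lay 786 bp outside PAP15, a purple acid phosphatase gene, at chromosome 3: 2258842 to 2259139. The sixth (98.4) lay 419 bp outside DGK6, a diacylglycerol kinase gene, at chromosome 4: 13971004 to 13971262. The seventh (96.8) lay 621 bp outside AT4G13660 at chromosome 4: 7944929 to 7945196. Its symbol, PRR2, stands for pinoresinol reductase 2, an enzyme of lignan synthesis, and the locus is not one of the pseudo-response regulators PRR9, PRR7, PRR5 and PRR3 of the clock. The eighth (95.8) lay 883 bp outside IBR1, a peroxisomal dehydrogenase gene in the conversion of indole-3-butyric acid to auxin, and the ninth (94.97) lay across an end of PLDALPHA2, a phospholipase D gene, with the rhomboid-like gene RBL5 and the long non-coding RNA gene AT1G07823 also there. Of these 10 peaks 3 lay across a gene end and 7 wholly outside the gene.

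The members ranked 5 and 10 belonged to a group of high peaks in a gene-poor stretch of chromosome 2. Here 4 members lay near each other, at AT2G07981 (3614930 to 3615171, percentile 99.1) and around AT2G08986 (3618009 to 3618209 at 94.4, 3626874 to 3627090 at 94.7 and 3627237 to 3627442 at 93.2), and the nearest Illumina peak was at least 113917 bp away. In all, 9 members (1.58%) lay in 100 kb bins with at most 6 protein-coding genes, against 0 of 924 shared peaks at gene ends and 3 of 943 Illumina-only ones (0.318%). The share was 1.37% (8 of 582) in IonPGM-only peaks inside genes, 1.63% (5 of 306) in shared IonPGM peaks inside genes and 25.8% (54 of 209) in IonPGM-only peaks far from genes. Those 9 had a median percentile of 93.2 (41.0 to 99.1), against 35.6 for the other 561. What sets these scores was not tested. Another pair of members lay close to the end of chromosome 2, over the ribosomal RNA gene AT2G01020 (5731 to 6152, percentile 78.01) and near AT2G01023 (8949 to 9284, 94.0), where the nearest Illumina peaks were 1992 and 497 bp away.

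Further down, the members at ranks 14 to 20, named after their values were seen, included several well-studied genes. They were AT5G58880 (92.8), PEX4 (92.2), a peroxisomal ubiquitin-conjugating enzyme gene, SUC2 (91.9), the sucrose transporter gene of phloem loading, GH3.9 with GSTF8 (91.8), ARR9 (90.3), LEC2 (89.1), a transcription factor gene of embryo development, and SRP3 (89.1), a serpin gene. The SUC2 peak, 597 bp outside the gene, is also the member nearest to the clock gene GI, which lies 27998 bp from it.

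In total 850 of 27444 nuclear protein-coding genes had a member centred in an end window (3.10%), and a window can be shared by neighbours. When a member was given only to the gene with the nearest end, 565 genes remained. Shared IonPGM peaks were centred at an end of 1312 genes (4.78%) and Illumina-only peaks at an end of 1366 (4.98%). Among the 850 genes 31 also had a shared peak at an end (3.65%, interval 2.49 to 5.14%) and 42 an Illumina-only peak (4.94%, 3.58 to 6.62%). Both shares stood near the 4.78% and 4.98% of all genes, and 779 (91.6%) had neither. Members overlap no Illumina peak by rule, so these shares too are given as a description. Only 12 genes had 2 or more members. The highest-scoring of these were AT2G07981 and AT2G08986 above, GAUT7, a pectin synthesis gene (70.4 and 43.5), AT5G41780 (66.0 and 35.5) and AT5G51830 (62.8 and 51.3). Genes with a symbol of their own had a member in 394 of 10374 cases (3.798%), and genes known by locus alone in 456 of 17070 (2.67%).

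Gene lists for pathways known from clock, light and hormone work were set beside that background of 3.10%. They hold 493 different genes in 19 lists, of which 34 (6.90%) had a member, and 8 of the 34 (23.5%) had one above percentile 50, against 250 of all 850 genes with a member (29.4%). Members of a list that share a peak are not independent, and no test was made on the lists. Their intervals were not adjusted for the number of lists. A listed gene was counted by any of its end windows, so its peak can lie nearer to another gene.

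The share of clock genes with a member rested on 1 gene. Of 28 morning and evening clock genes 1 had a member (3.57%, against 3.10% of all genes), RVE5 (AT4G01280), a CCA1-related MYB gene, with a peak at percentile 12.2 centred 60 bp inside an end at chromosome 4: 535166 to 535350. For the 16 morning genes alone the exact interval ran from 0.158 to 30.2%, so this count cannot place clock genes above or below 3.10%. A shared IonPGM peak was centred at an end of 14 of the 28. None of the 12 evening genes, TOC1, GI, ELF3, ELF4, LUX, BOA, PRR5, PRR3, ZTL, FKF1, LKP2 and CHE, had a member, which allows a share of up to 25% when taken as 3 counts of 12 and up to 26.5% by the exact interval.

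**Figure D5:**
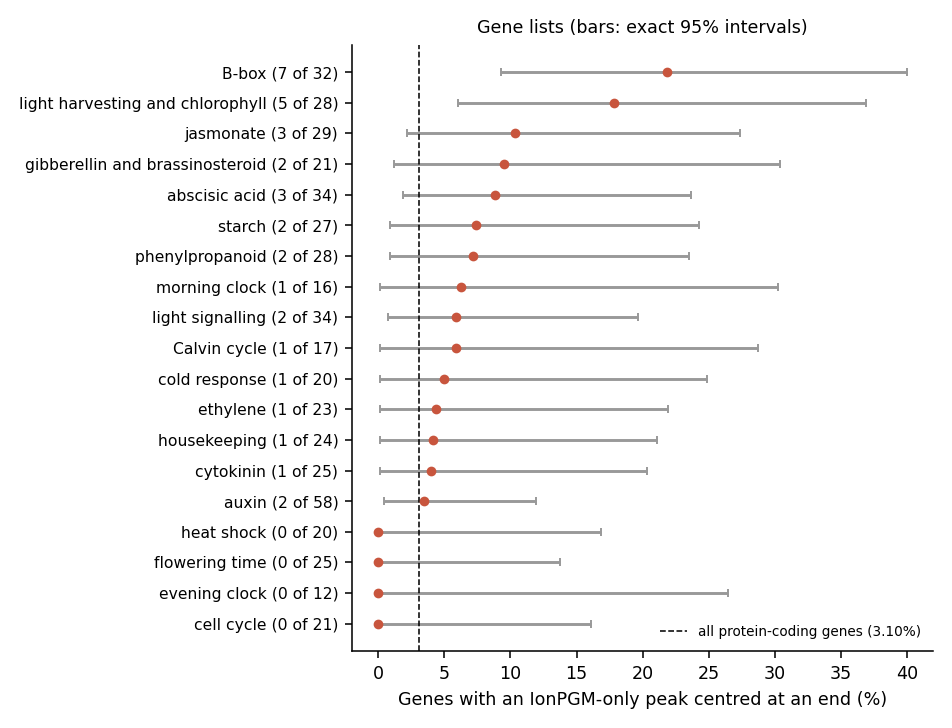
Percent of the genes of each list with an IonPGM-only peak centred at an end, with exact 95% intervals over genes, and the percent over all protein-coding genes (dashed line, 3.10%). B-box genes (7 of 32) and light-harvesting and chlorophyll genes (5 of 28) are the lists whose interval lies above the line.

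The B-box genes had the largest share of the lists. They encode zinc-finger proteins, many of which act in light signalling and flowering, and 7 of 32 (21.9%, interval 9.28 to 40.0%) had a member. These were COL1, COL3, BBX9, BBX12, BBX16, BBX29 and BBX31. The percentiles were 48.8 and 46.0 at COL1, on either side of the gene, 44.1 at COL3, 43.3 at BBX16, 33.4 at BBX29, 6.41 at both BBX9 and BBX12 and 1.93 at BBX31, so none stood above percentile 50, as was the case for most members, whose median was 36.0. COL1 and COL3 are close relatives of the flowering gene CONSTANS, and both COL1 peaks also lay over the long non-coding RNA gene AT5G15845. The COL1 peak at 46.0 lay nearer to AT5G15853. The COL3 peak (chromosome 2: 10566710 to 10566932) was centred 15 bp outside the gene, with the nearest Illumina peak 128480 bp away. BBX29 was the only one of the 7 that also had a shared peak at an end, at percentile 97.3. Shared peaks were found at 8 of the 32 genes.

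Light-harvesting and chlorophyll genes had a member in 5 of 28 cases (17.9%, interval 6.06 to 36.9%), from 4 peaks. A single peak (57.8, chromosome 2: 14524411 to 14524653) lay across the end of LHB1B1 (LHCB1.4) and in the window of LHB1B2 (LHCB1.5). These are neighbouring genes for near-identical antenna proteins of photosystem II. Whether reads under the peak can be placed uniquely was not tested. The others were at GUN4, a regulator of chlorophyll synthesis (46.7, centred 8 bp inside), LHCB2.3 (15.9) and LHCA1, an antenna protein of photosystem I (13.2). All 4 of these peaks had an Illumina peak close by, 692, 269, 191 and 739 bp away. Of the 28 genes, 3 had a shared peak at an end (10.7%, against 4.78% of all genes). Illumina-only peaks were at 4 (14.3%, against 4.98%). In the Calvin cycle list 1 of 17 genes (5.88%) had a member, SBPASE, at percentile 0.172, from a peak nearer to AT3G55810.

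For each hormone list the interval included 3.10%. Jasmonate genes had a member in 3 of 29 cases (10.3%, interval 2.19 to 27.4%): LOX2, a lipoxygenase of jasmonate synthesis (68.5, beside a shared peak at 87.6), JAZ12, a repressor (26.5), and the transcription factor gene MYC4 (7.43 and 3.03, on either side). The MYC4 peak at 7.43 lay nearer to AGD8. Abscisic acid genes had one in 3 of 34 cases (8.82%), the receptor gene PYL5 (42.0), the kinase gene SNRK2.2 (37.1) and the dehydrin gene RAB18 (8.10). Gibberellin and brassinosteroid genes had one in 2 of 21 (9.52%), the DELLA repressor gene GAI (68.8, centred 951 bp outside) and the co-receptor gene BAK1 (5.79). Auxin genes had one in 2 of 58 (3.45%), at ARF4 (34.0) and IAA19 (30.2), ethylene genes in 1 of 23 (4.35%), at the receptor gene ERS2 (25.5), and cytokinin genes in 1 of 25 (4%).

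That cytokinin gene was ARR9, a type-A response regulator that dampens cytokinin signalling, and its peak was the highest of any gene in the 19 pathway lists (90.3, chromosome 3: 21108638 to 21108954). The peak lay wholly outside the gene, with its midpoint 263 bp from the end, and the nearest Illumina peak was 7370 bp away.

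For each of the remaining metabolic, stress and light lists the interval included 3.10%. Starch genes had a member in 2 of 27 cases (7.41%), at PGM, the plastid phosphoglucomutase (62.8), and SBE2.2, a starch branching enzyme (4.72). Phenylpropanoid genes had one in 2 of 28 (7.14%), at FLS1, flavonol synthase (58.3), and CAD5, cinnamyl alcohol dehydrogenase (20.04). The FLS1 peak was centred 30 bp inside AT5G08630 and 658 bp from FLS1, and the CAD5 peak lay nearer to ALDH3I1. Cold response genes had one in 1 of 20 (5%), at the transcription factor gene CBF4 (47.0), whose end also held a shared peak (38.4), against shared peaks at 9 of the 20. The CBF4 peak lay across an end of AT5G51980 and 443 bp from CBF4. Light signalling genes had one in 2 of 34 (5.88%), at FHY1 (57.4), which carries phytochrome A into the nucleus, and PKS4 (45.2), and housekeeping genes in 1 of 24 (4.17%), YLS8 (36.3). The YLS8 peak was centred 38 bp from that gene and 35 bp from HEMC. Flowering-time (25 genes), heat shock (20) and cell cycle genes (21) had none, which by the same limit of 3 counts allows shares of up to 12.0%, 15.0% and 14.3%.

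Of 14 gene families counted by symbol, AP2/ERF was the one whose interval lay above the 3.10% of all genes. That interval includes 3.798%, the share among genes with a symbol, from which the families were drawn. Intervals were not adjusted for the number of families. AP2/ERF transcription factor genes had a member in 5 of 45 cases (11.1%, interval 3.71 to 24.1%), with ERF12 (72.1), CBF4 (47.0) and ERF2 (39.6) highest. The peaks counted for CBF4 and DREB2A lay nearer to AT5G51980 and AT5G05400, and families were not recounted by nearest gene alone. Shared peaks were at 10 of the 45 (22.2%) and Illumina-only peaks at 1 (2.22%). Glutathione transferases had one in 4 of 46 (8.70%, 2.42 to 20.8%), among them GSTF8 (91.8) and GSTU19 (46.7), and the neighbours GSTU18 and ERD9 through a single peak (21.4). The GSTF8 peak was centred 83 bp inside GH3.9 and 725 bp from GSTF8. NAC genes had one in 4 of 100, with NAC097 (99.9), NAC067 (88.9) and the senescence gene NAP (66.9) highest. WRKY genes had one in 4 of 72, all at or below 42.7, and MYB genes in 5 of 125, led by MYB47 (60.3). MAP kinase genes had one in 2 of 20 (MPK18 and MPK20), aquaporins in 3 of 45 (PIP3, PIP2A and SIP1A), ribosomal proteins in 2 of 56 (RPL4 and RPL23AA), and expansins and xyloglucan hydrolases in 2 of 63 (EXPB3 and XTH31). The RPL4 and RPL23AA peaks lay nearer to AT1G07310 and MTP11. Cytochrome P450 genes had one in 5 of 234, led by CYP704B1 (66.9, from the peak it shares with NAP), ABC transporters in 2 of 127 (ABCB27 and ABCC14), bZIP genes in 1 of 46 (bZIP68), calcium-dependent protein kinases in 1 of 34 (CPK30), and the 22 genes with a bHLH symbol in none, which at 3 counts allows up to 13.6%.

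Some members at coding gene ends lay over genes that make no protein. Transfer RNA genes were under 11 members (1.93%, interval 0.967 to 3.43%), against 29 shared peaks at gene ends (3.14%, 2.11 to 4.48%) and 52 Illumina-only peaks (5.51%, 4.15 to 7.17%). The percentiles of those 11 ran from 8.88 to 73.3 with a median of 34.2. Long non-coding RNA genes were under 24 members (4.21%), 57 shared peaks (6.17%) and 37 Illumina-only peaks (3.92%). Members also covered the spliceosomal RNA genes U2.3 (82.1) and U2.4 (69.5), each with no Illumina peak within 5000 bp. Small nuclear RNA genes were under 2 members (0.351%, interval 0.0425 to 1.26%) and 7 shared peaks (0.758%, 0.305 to 1.55%). They were under 2 Illumina-only peaks (0.212%, 0.0257 to 0.764%), and these intervals overlap. The interval for tRNA genes among members lies below that of the Illumina-only peaks, a difference that was not tested.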

How the data were processed

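The data are 2 deposited peak lists, 1 per sequencer. Per the submitters' processing notes, Bowtie 0.12.7, SAMtools 0.1.18 and MACS2 were used with the TAIR10 build. The sources used here do not state the peak threshold, the control or any filter. The value of each peak is the authors' deposited score, of unknown scale, used only to rank peaks within its list. Read depth is unknown. Intervals were read as 0-based half-open and are printed 1-based.

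Overlap meant at least 1 bp. Genes are the 27444 nuclear protein-coding genes of NCBI RefSeq on TAIR10.1, whose nuclear sequence is that of TAIR10. No coordinate of that table is printed, and it gives no strand. Results on gene starts and on sequence motifs, though intended, were not run, as no strand or sequence was used here. The members and gene lists were chosen with earlier results of these data known. Lists were matched by locus (493 of 493) and families by symbol. Ambiguous or unmatched symbols were set to a locus, and the family patterns rewritten as symbol patterns, after the files were seen.

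Genes named are those at the 10 highest members, up to 3 per list or family, up to 5 with several members, and those beside each limit; for lists with few members all are named. With 1 library per sequencer no test was possible. Shares carry exact (Clopper-Pearson) 95% intervals, and a count of 0 allows 3 counts. The code was checked on planted peaks. Software: Matplotlib 3.10.9, pandas 2.3.3, SciPy 1.17.1 and NumPy 2.4.6 under Python 3.11.15.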

Additional observations from a re-analysis of the deposited data

How the results depend on the processing

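Of 52 values recomputed under other settings, 43 stayed close to those reported (counts within 1.5 times, medians within their exact interval). Restricting to IonPGM scores above percentile 50 left 177 peaks at 250 genes, with a median percentile of 66.9 and a median width of 238 bp, and left 0 B-box genes, 0 clock genes and 2 light-harvesting and chlorophyll genes. A window of 500 bp outside moved the median distance to 22 bp outside. Giving each peak only to the gene with the nearest end, a choice made after seeing the data, gave 565 genes. The number of peaks was 560 when an Illumina peak within 200 bp counted as shared, 595 when Illumina peaks had to cover 50% of the peak, 484 with the 500 bp window, 561 without gene-poor bins and 615 with the ends of all annotated genes. No paired analysis was possible because each sequencer has 1 library and no result comes from a test. Alternatives for the share at gene starts and for the evening element motif were not run. Read depth is unknown, so absence from the Illumina list says only that no peak was listed there.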
